A study of Mus musculus with 16 samples.

Results

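KAT6A loss in embryos that overexpress Kat6b was examined by comparing 4 Kat6a-/-Tg(Kat6b) embryos with 4 Kat6a+/+Tg(Kat6b) embryos, chosen by their genotype labels from the 16 embryos of the series. All 26411 genes of the count files were included, and 15679 passed the filter on low counts. Each sample was 1 whole mouse embryo at E9.5, and its RNA was measured by bulk RNA-seq. The series also held 4 Kat6a-/-Kat6b+/+ and 4 Kat6a+/+Kat6b+/+ embryos without the transgene, and it asked how far extra Kat6b alters the consequences of losing Kat6a. All 8 embryos of the comparison carried Tg(Kat6b), a bacterial artificial chromosome (pBACe3.6, clone RP23-360F23) that holds Kat6b with 21 kb and 42 kb of flanking sequence, inserted in multiple copies and derived from 1 germline founder. The Kat6a null allele lacks several exons, which counts per gene do not resolve. The mice were FVB x BALB/c hybrids. The Kat6a-/-Tg(Kat6b) embryos came from litter 483 (replicates 1, 2 and 3) and litter 498 (replicate 4), and the Kat6a+/+Tg(Kat6b) embryos from litter 2597 (replicates 1, 2 and 3) and litter 2598 (replicate 4). Replicates 1 and 3 were male and replicates 2 and 4 female in both groups. Since no litter held both genotypes, litter and genotype cannot be told apart within these 8 embryos.

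KAT6A and its paralog KAT6B are alternative catalytic subunits of a histone acetyltransferase complex that acetylates lysines of histone H3. In mice, KAT6A is known for its part in Hox gene expression and segment identity, in the expression of Tbx1 in the pharyngeal region, and in the maintenance of blood stem cells. KAT6B is best known for its role in the developing forebrain and skeleton.

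Kat6b was present at a similar level in both groups. It stood at 155, 198, 188 and 227 CPM (read counts scaled to library size, TMM-normalized) in Kat6a+/+Tg(Kat6b) replicates 1 to 4 and at 192, 203, 199 and 195 CPM in Kat6a-/-Tg(Kat6b) replicates 1 to 4. The means were 192 ± 29.7 and 197 ± 4.92 CPM (SD, n = 4 each), a ratio of 1.03, and the groups overlapped (two-sided exact permutation test, p = 0.657, where 0.0286 is the smallest p that 4 against 4 embryos allow). For comparison, the Kat6a+/+Kat6b+/+ embryos had a mean of 46.2 CPM, so that the Kat6b mean was 4.16-fold higher with the transgene on the Kat6a+/+ background. Kat6a reads were counted in both groups, at 138, 189, 192 and 196 CPM in Kat6a+/+Tg(Kat6b) and at 195, 187, 201 and 184 CPM in Kat6a-/-Tg(Kat6b) embryos (exact permutation test, p = 0.543). The Kat6a count per gene therefore did not check the genotype, since it also covers exons outside the deletion. CPM values are not divided by gene length, and levels below are compared between embryos for 1 gene at a time, always in the order of replicates 1 to 4.

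One library stood apart before any gene was tested. In Kat6a+/+Tg(Kat6b) replicate 1, genes in the shortest quintile by length (30 to 1705 bases) lay a median of 0.14 above their mean over the 16 embryos on the log2 scale, and genes in the longest quintile (5264 to 107765 bases) lay 0.17 below it. The other 7 transgenic libraries lay between -0.09 and 0.05 for the shortest and between -0.04 and 0.04 for the longest quintile. Total counts were 22866009 to 24029187 in Kat6a+/+Tg(Kat6b) and 16091022 to 45665680 in Kat6a-/-Tg(Kat6b) libraries. Every pair of replicates differed by more than counting noise (chi-square per degree of freedom 1.83 to 15.7), so none was an exact copy. The lowest value, 1.83, was that of Kat6a-/-Tg(Kat6b) replicates 2 and 4, labelled as litters 483 and 498. All other pairs, littermates among them, lay at 4.20 to 15.7. The values cannot show whether 2 libraries came from the same embryo, since separately made libraries can also differ by more than counting noise. Why replicates 2 and 4 were so alike was not tested.

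The comparison was fitted with all 16 embryos and 2 surrogate variables, and 535 genes passed a false discovery rate (FDR) under 0.05 by edgeR's quasi-likelihood test with Benjamini-Hochberg adjustment, 3.41% of those tested. Of these, 357 (2.28%) were higher and 178 (1.14%) lower in Kat6a-/-Tg(Kat6b) embryos. Most differences were small, with a median absolute log2 fold change of 0.30, and 32 genes passed the FDR with a change over 2-fold, 20 higher and 12 lower. The median log2 fold change of all genes was -0.01. Taking CPM alone, 1640 genes (10.5%) did not overlap between the groups of 4, 954 (6.08%) of them higher and 686 (4.38%) lower, and 405 of the 535 genes were among them. As the embryos were measured whole, fewer cells of a type and less RNA per cell cannot be told apart for any gene below.

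The number of calls moved with gene length and with the embryos included, among them the library that stood apart. Of the 357 genes that were higher, 266 lay in the longest quintile of genes by length, against 13 of the 178 that were lower, and the shortest quintile held 8 and 56. The median length was 7129 bases for the higher and 2334 bases for the lower genes, against 3116 bases over all tested genes. Without Kat6a+/+Tg(Kat6b) replicate 1, 165 genes were called, 93 higher and 72 lower, and the longest quintile held 50 higher and 11 lower. Calls also fell when an embryo of the other group was left out, to 241, 210, 197 and 199 without Kat6a-/-Tg(Kat6b) replicates 1 to 4. Without Kat6a+/+Tg(Kat6b) replicates 2, 3 and 4 they were 703, 514 and 409. With offsets that remove the trend over gene length in each library, 262 genes were called, 135 higher and 127 lower. The length offsets, and the rule that a gene pass in all 3 of these fits, were chosen after the data had been seen.

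**Figure D1:**
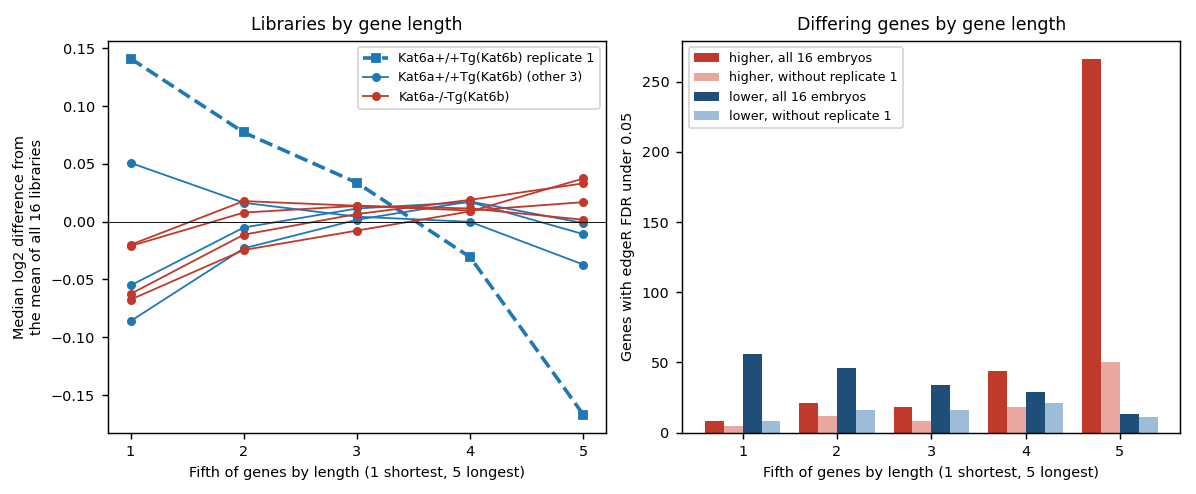
Gene length and the calls between the transgenic genotypes. One panel plots, for each of the 8 transgenic libraries, the median log2 deviation of genes from their mean over 16 embryos against quintiles of gene length; Kat6a+/+Tg(Kat6b) replicate 1 runs from 0.14 to -0.17. The other panel plots the number of genes called higher or lower per quintile with all 16 embryos and without that library; in the longest quintile 266 genes were higher with it and 50 without it.

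Genes were therefore followed in 3 fits, and 102 genes (0.651% of those tested) passed the FDR in the same direction with all embryos, without Kat6a+/+Tg(Kat6b) replicate 1, and with the length offsets. These 102 robust genes comprised 58 higher (0.37%) and 44 lower (0.281%) in Kat6a-/-Tg(Kat6b) embryos, with a median absolute log2 fold change of 0.37, and 9 of them changed over 2-fold. CPM values did not overlap between the groups for 89 of the 102, beside 10.5% of all tested genes. The 102 were chosen by tests on these same embryos, so this separation is largely set by the choice. The difference had the same sign in females and in males for 98 of them, the others being Hoxb1, Meox1, Tnrc6a and Kdm5d. Kdm5d, a Y-linked demethylase gene, stood at 57.4 and 64.4 CPM in Kat6a+/+Tg(Kat6b) males and at 58.4 and 60.9 CPM in Kat6a-/-Tg(Kat6b) males, and its call (-0.51, FDR 0.0148) rests on females at or near 0. The median length of the 58 higher genes was still 5458 bases. Of the 102, 77 also passed without surrogate variables, 62 with the 8 transgenic embryos alone, and 70 when litter 483 was compared with litter 2597. The second surrogate variable separated the Kat6a-/-Tg(Kat6b) females (-0.41 and -0.33) from the males (0.02 and 0.03), and for Hoxb1, Pou3f3, Foxc2 and Col1a2 the fitted change lay nearer to the difference among males than to that among females.

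**Figure D2:**
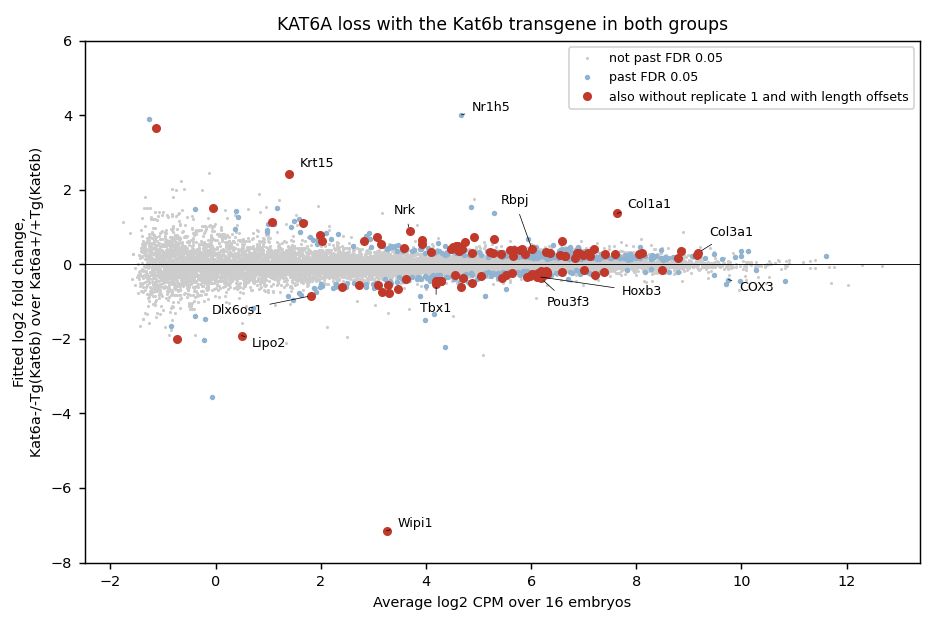
Log2 fold change of each of the 15679 tested genes, Kat6a-/-Tg(Kat6b) over Kat6a+/+Tg(Kat6b), against average log2 CPM. Grey points did not pass the FDR, and colours mark the 535 genes that did, with the 102 robust genes set apart; most of them lie within 2-fold of no change.

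Promoter windows of 5 genes that the results turn on are shown because the KAT6A complex is known to bind DNA rich in CpG. Each is the 250 bases upstream of the start of the Ensembl canonical transcript (GRCm39), 5′ to 3′ on the gene's strand, with every CpG in capitals. Tbx1 (chr16:18405720-18405969, minus strand) held 48 CpG, Pou3f3 (chr1:42733835-42734084, plus strand) 13, Aldh1a2 (chr9:71122380-71122629, plus strand) 7, Rbpj (chr5:53747563-53747812, plus strand) 23 and Col1a1 (chr11:94826800-94827049, plus strand) 7. Their Entrez identifiers are 21380 (Tbx1), 18993 (Pou3f3), 19378 (Aldh1a2), 19664 (Rbpj) and 12842 (Col1a1). The first 3 genes fell and the other 2 rose in Kat6a-/-Tg(Kat6b) embryos.
Tbx1: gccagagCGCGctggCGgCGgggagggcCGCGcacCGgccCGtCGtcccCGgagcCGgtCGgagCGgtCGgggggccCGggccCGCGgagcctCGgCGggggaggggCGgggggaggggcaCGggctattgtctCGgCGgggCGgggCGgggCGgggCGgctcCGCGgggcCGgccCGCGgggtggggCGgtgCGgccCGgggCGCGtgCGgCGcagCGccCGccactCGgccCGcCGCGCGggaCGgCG
Pou3f3: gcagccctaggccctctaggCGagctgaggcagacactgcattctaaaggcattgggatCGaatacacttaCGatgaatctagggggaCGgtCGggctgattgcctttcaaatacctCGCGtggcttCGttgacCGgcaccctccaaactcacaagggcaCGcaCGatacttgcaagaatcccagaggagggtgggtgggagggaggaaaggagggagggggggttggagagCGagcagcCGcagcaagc
Aldh1a2: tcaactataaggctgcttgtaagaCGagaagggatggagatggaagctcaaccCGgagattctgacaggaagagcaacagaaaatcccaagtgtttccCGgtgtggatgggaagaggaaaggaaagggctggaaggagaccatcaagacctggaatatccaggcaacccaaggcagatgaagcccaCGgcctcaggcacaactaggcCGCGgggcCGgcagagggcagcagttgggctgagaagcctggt
Rbpj: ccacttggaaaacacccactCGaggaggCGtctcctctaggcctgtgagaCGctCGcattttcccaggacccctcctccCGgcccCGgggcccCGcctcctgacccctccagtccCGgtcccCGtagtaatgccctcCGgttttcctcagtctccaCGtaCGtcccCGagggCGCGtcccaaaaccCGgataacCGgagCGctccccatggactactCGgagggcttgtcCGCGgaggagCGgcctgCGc
Col1a1: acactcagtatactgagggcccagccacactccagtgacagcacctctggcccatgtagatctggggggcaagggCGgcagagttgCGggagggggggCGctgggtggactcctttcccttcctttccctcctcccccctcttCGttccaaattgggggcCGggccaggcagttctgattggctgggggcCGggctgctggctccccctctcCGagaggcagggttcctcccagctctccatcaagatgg
The motif searched was CG, which reads the same on both strands. Over all 15339 tested genes with such a window the median was 12 CpG, and 59.7% held at least 10. The robust genes that were lower had a median of 12.5 and those that were higher a median of 10, with at least 10 CpG in 59.1% and 51.7% of windows. CpG content of the window was thus near the background for the lower genes, and the difference for the higher genes was not tested.

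Among the developmental regulators, Hox genes, which set position along the body axis, were lower where they passed the test. Of 38 tested Hox genes, 5 fell (Hoxb1, Hoxb3, Hoxb9, Hoxd3 and Hoxd4) and none rose, and the median log2 fold change over the 38 was -0.05 beside -0.01 for all genes. With the length offsets the list median was 0.01. Of the 38 genes, 22 had a negative and 16 a positive value. Over all tested genes 1.14% were called lower and 2.28% higher, which is the background for each list below. Hoxb3, which acts in the hindbrain and neck segments, stood at 83.2, 81.1, 83.7 and 83.9 CPM in Kat6a+/+Tg(Kat6b) and at 66.8, 63.2, 65.5 and 62.2 CPM in Kat6a-/-Tg(Kat6b) embryos (a log2 fold change of -0.33 ± 0.04 (SE), FDR 0.000232). The 4 values of each group lay close together and did not overlap, although 51.5% of the gene overlaps annotation on the opposite strand, which the counts may not separate. Hoxb1, a gene of the early hindbrain, stood at 25.4, 26.4, 21 and 21.9 CPM and at 18.7, 24.1, 14.5 and 24.5 CPM (-0.46 ± 0.08, FDR 0.00306). The groups overlapped, with the 2 male Kat6a-/-Tg(Kat6b) embryos lowest (difference -0.49 in males and 0.02 in females), and without surrogate variables Hoxb1 was not called (FDR 0.534).

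Hoxd3 and Hoxd4, neighbours in the Hoxd cluster, did not overlap between the groups. Hoxd3 stood at 45.8, 52.3, 54.8 and 51.1 CPM and at 38.9, 36.8, 43.1 and 36.5 CPM (-0.36 ± 0.08, FDR 0.0195), and Hoxd4 at 65.3, 73.3, 76.5 and 68.9 CPM and at 56.1, 53.7, 56.3 and 56.4 CPM (-0.29 ± 0.07, FDR 0.0213). Hoxb9, a gene of trunk segments, had a change of -0.21 ± 0.05 (FDR 0.0302) and means of 124 ± 7.71 and 108 ± 3.72 CPM. With the length offsets these 3 genes had an FDR of 0.0517, 0.0841 and 0.0777. Summed over the list, Hox genes took 937 to 968 CPM in Kat6a+/+Tg(Kat6b) and 866 to 907 CPM in Kat6a-/-Tg(Kat6b) embryos, 2 ranges that did not overlap. In embryos without the transgene, 9 Hox genes were lower after KAT6A loss, with a list median of -0.23, and for no Hox gene did the difference between the effects pass the FDR.

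Tbx1, a T-box factor of the pharyngeal arches and otic vesicle, was the 1 gene of 12 tested T-box genes that changed. Kat6a+/+Tg(Kat6b) embryos had 25.1, 24.4, 22.2 and 21.6 CPM and Kat6a-/-Tg(Kat6b) embryos 15.7, 16.6, 16.2 and 18.9 CPM (log2 fold change -0.52 ± 0.08, FDR 0.00197). All Kat6a-/-Tg(Kat6b) embryos lay below the lowest Kat6a+/+Tg(Kat6b) embryo, and Tbx1 passed the FDR in each of the 22 alternative fits. Brachyury (T), a factor of the tail bud mesoderm, had -0.37 ± 0.12 (FDR 0.0937), Mga 0.43 ± 0.14 (FDR 0.121) and the heart factor Tbx20 0.36 ± 0.13 (FDR 0.15). The 25 tested genes of a pharyngeal arch and 22q11 list, which did not include Tbx1 or the Dlx genes, had a median of -0.01. None of them passed the FDR. Of 12 otic vesicle genes Tbx1 and Oc90 fell (median -0.16).

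The distal-less factors of the arches and forebrain gave 1 call among 6 tested Dlx genes. Dlx1 had means of 9.01 ± 0.97 and 5.41 ± 1.64 CPM (-0.50 ± 0.14, FDR 0.0481), and its FDR was 0.181 without Kat6a+/+Tg(Kat6b) replicate 1 and 0.131 with the length offsets. Dlx5 (-0.20, FDR 0.359), Dlx3 (-0.08, FDR 0.705) and Dlx6 (-0.03, FDR 0.952) did not pass. The antisense transcript Dlx6os1 stood at 5.16, 5.42, 6.35 and 5.28 CPM and at 2.64, 2.27, 3.21 and 2.92 CPM (-0.84 ± 0.16, FDR 0.00674), with no overlap. The kit did not mark strand, and 4.8% of the exon bases of Dlx6os1 overlap annotation on the opposite strand. Reads from that part cannot be told apart.

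Pou3f genes, which encode POU factors of neural progenitors, all fell. Pou3f3 stood at 77, 80.4, 97.5 and 97.4 CPM in Kat6a+/+Tg(Kat6b) and at 68.8, 52.3, 66.6 and 53 CPM in Kat6a-/-Tg(Kat6b) embryos (a log2 fold change of -0.38 ± 0.05, FDR 0.000232). The groups did not overlap, and in Kat6a-/-Tg(Kat6b) the 2 females were the lower ones. Pou3f2 stood at 79.8, 85.8, 98.5 and 87.6 CPM and at 70, 62.7, 80.4 and 60.8 CPM (-0.25 ± 0.05, FDR 0.0127), where the highest Kat6a-/-Tg(Kat6b) embryo just passed the lowest of the other group. Pou3f4 (-0.28 ± 0.07, FDR 0.0335) and Pou3f1 (-0.50 ± 0.14, FDR 0.0458) were called with all embryos but not in all of the 3 fits. The median of the 4 genes was -0.33. For Pou3f3 and Pou3f2, Kat6a+/+Kat6b+/+ embryos differed by litter in the same direction, with means of 77.6 and 81.9 CPM in litters 801 and 803 and of 90.9 and 91.3 CPM in litters 2597 and 2598, the litters of the Kat6a+/+Tg(Kat6b) embryos.

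Some neural progenitor genes fell as well. Of 18 tested neural progenitor and neuron markers, Sox1, Sox2 and the Notch ligand gene Dll1 (-0.21, FDR 0.0468) fell and none rose, and 16 had a negative log2 fold change, with a median of -0.14. Among all tested genes 1.14% were called lower. Sox2, a factor that keeps progenitors undifferentiated, stood at 179, 175, 195 and 186 CPM and at 159, 157, 162 and 151 CPM (-0.21 ± 0.04, FDR 0.00744), although 59.9% of it overlaps annotation on the opposite strand. Sox1, a factor of the neural plate, stood at 75.4, 78.4, 84.1 and 75.7 CPM and at 67.3, 69.9, 69.1 and 66.3 CPM (-0.23 ± 0.05, FDR 0.0149). Neither gene overlapped between the groups. Of 19 forebrain to hindbrain genes 15 were negative (median -0.16), and Otx1, a forebrain and midbrain factor, fell (means 28.0 ± 1.25 and 22.1 ± 3.20 CPM, -0.40 ± 0.09, FDR 0.0235), with an FDR of 0.0504 without Kat6a+/+Tg(Kat6b) replicate 1. Marker sums for the neural list were 1175 to 1358 CPM in Kat6a+/+Tg(Kat6b) and 1022 to 1198 CPM in Kat6a-/-Tg(Kat6b) embryos, and the part of cell composition was not tested.

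**Figure D3:**
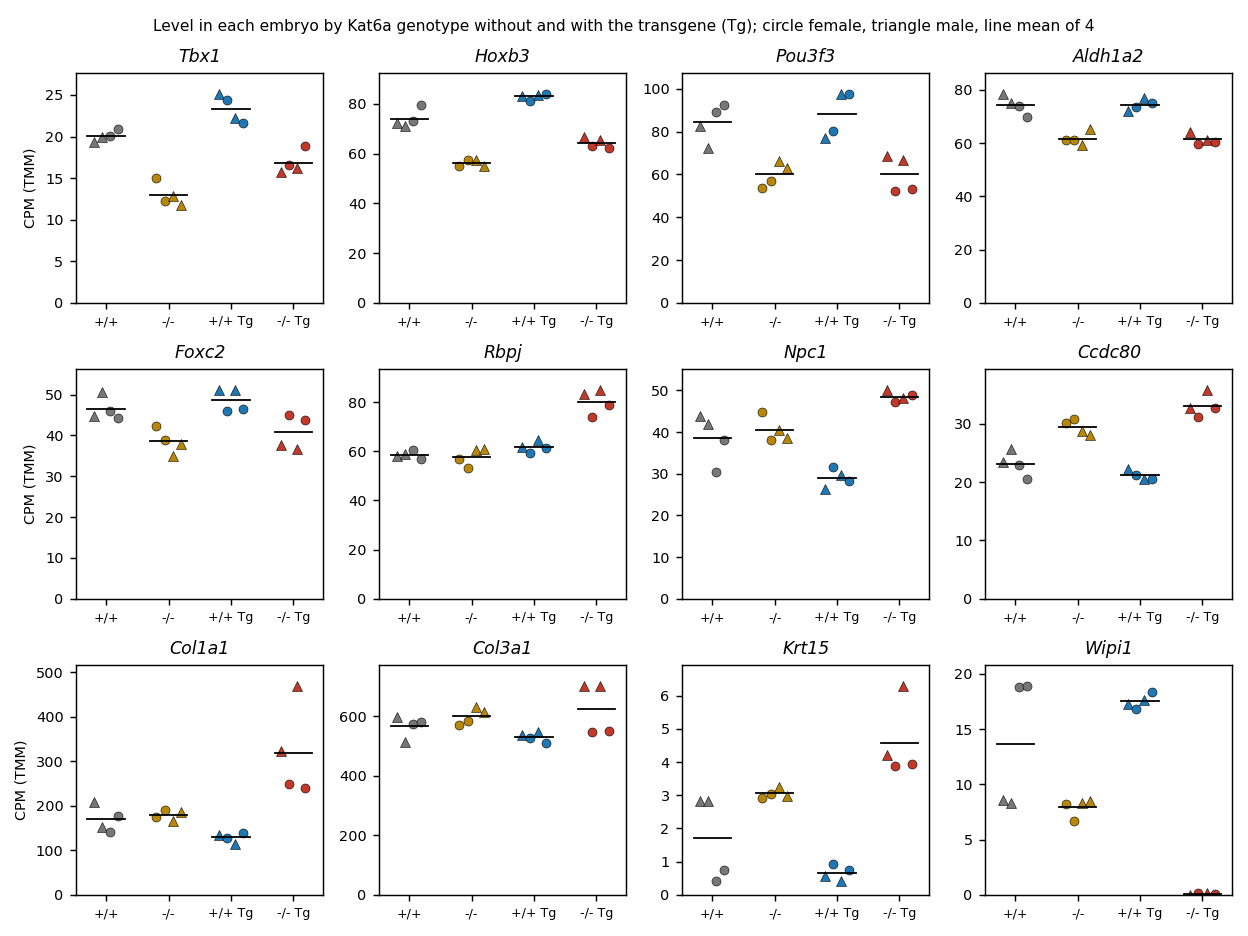
CPM of 12 genes in each embryo of the 4 genotypes, 1 panel per gene with its own axis. Circles are females, triangles males and lines group means; in Kat6a-/-Tg(Kat6b) embryos Tbx1 lies between 15.7 and 18.9 CPM, Hoxb3 between 62.2 and 66.8 CPM and Rbpj between 74.0 and 84.9 CPM.

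Some mesodermal and patterning genes were also lower. Aldh1a2, the enzyme that makes retinoic acid in trunk mesoderm, stood at 72.0, 73.5, 76.8 and 75.2 CPM in Kat6a+/+Tg(Kat6b) and at 64.2, 59.6, 61.2 and 60.4 CPM in Kat6a-/-Tg(Kat6b) embryos (a log2 fold change of -0.28 ± 0.05, FDR 0.00306). The groups were well separated. Among 18 tested retinoic acid genes 4 fell and none rose (median -0.09), beside 1.14% of all tested genes called lower. The others were the degrading enzymes Cyp26b1 (-0.28, FDR 0.0329) and Cyp26c1 (-0.46, FDR 0.0261) and the binding protein Crabp2 (-0.19, FDR 0.0288). Cyp26b1 missed the FDR without Kat6a+/+Tg(Kat6b) replicate 1 (0.0513) and Cyp26c1 with length offsets (0.0682). Crabp2 lost its call in both added fits (FDR 0.169 without Kat6a+/+Tg(Kat6b) replicate 1 and 0.249 with length offsets). The list summed to 1281 to 1399 CPM and to 1188 to 1258 CPM.

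Foxc2, a forkhead factor of mesoderm and vessels, stood at 51.0, 45.9, 51.1 and 46.5 CPM and at 37.7, 44.9, 36.7 and 43.8 CPM (-0.35 ± 0.06, FDR 0.00306), without overlap. The difference was -0.46 in males and -0.06 in females, and the FDR without surrogate variables was 0.0578. Foxd1, a forkhead factor known from kidney stroma, fell by 0.27 on the log2 scale (FDR 0.0148) and differed by -0.40 in males, with females of both groups level. Both belonged to a list of 10 Fox genes of mesoderm with a median of -0.21, in which no member was called higher and 3 had positive values.

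Somite genes gave 3 lower and no higher calls among 15 tested somite and myotome markers, with a median of -0.19 and 13 negative members. The share called lower over all tested genes was 1.14%. Lfng, which modulates Notch signalling in the segmentation clock, stood at 51.6, 49.0, 57.0 and 50.9 CPM and at 41.8, 44.0, 40.0 and 43.5 CPM (-0.27 ± 0.06, FDR 0.0232). Uncx, a factor of the posterior somite, had -0.30 ± 0.08 (FDR 0.0341). Both were without overlap, and both missed the FDR in the added fits, at 0.0834 and 0.0588 without replicate 1 of Kat6a+/+Tg(Kat6b) and at 0.0749 and 0.0932 with length offsets. Meox1, a somite factor, was robust by the 3 fits (-0.19, FDR 0.0158) but overlapped between the groups and differed by 0.03 in females. The markers summed to 262 to 291 CPM in Kat6a+/+Tg(Kat6b) and to 235 to 253 CPM in Kat6a-/-Tg(Kat6b) embryos.

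Further lower genes, chosen after their values were seen, were Skida1 and Ntn1. Skida1 stood at 68.7, 74.4, 76.6 and 78.9 CPM and at 56.7, 62.2, 60.2 and 60.9 CPM (-0.32 ± 0.05, FDR 0.00276). Ntn1, the floor plate axon guidance cue netrin, stood at 161, 161, 177 and 164 CPM and at 137, 140, 134 and 138 CPM (-0.28 ± 0.04, FDR 0.00197). Neither overlapped, and both passed in each of the 22 alternative fits, as did Tbx1, Hoxb3, Pou3f3 and Aldh1a2 among 38 genes in all, 15 lower and 23 higher.

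Among the genes that rose, Rbpj, the DNA-binding partner of Notch receptors, had the smallest FDR. Kat6a+/+Tg(Kat6b) embryos had 61.7, 59.2, 64.4 and 61.2 CPM and Kat6a-/-Tg(Kat6b) embryos 83.2, 74.0, 84.9 and 78.8 CPM (log2 fold change 0.41 ± 0.04, FDR 4.02e-05). All 4 embryos of 1 group lay above all of the other, in both sexes (0.34 in females and 0.41 in males). In embryos without the transgene Rbpj had means of 58.6 and 57.8 CPM with and without Kat6a (-0.02, FDR 0.884), and the difference between the 2 effects was 0.43 (FDR 0.00209).

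Some collagen genes were among those that rose. Of 19 tested collagen genes 5 rose and none fell, with a list median of 0.09 that was 0.01 with the length offsets. The share called higher over all tested genes was 2.28%. Col1a1, the main chain of type I collagen, stood at 135, 127, 114 and 139 CPM in Kat6a+/+Tg(Kat6b) and at 322, 248, 469 and 239 CPM in Kat6a-/-Tg(Kat6b) embryos (a log2 fold change of 1.37 ± 0.20, FDR 0.00905). Every Kat6a-/-Tg(Kat6b) embryo exceeded every Kat6a+/+Tg(Kat6b) embryo, and the males exceeded the females (1.65 in males and 0.88 in females). Col3a1, a fibrillar collagen of vessels and skin, stood at 538, 526, 549 and 509 CPM and at 702, 546, 702 and 550 CPM (0.32 ± 0.04, FDR 0.000232). Col1a2, the partner chain of Col1a1, stood at 250, 256, 294 and 242 CPM and at 339, 251, 361 and 252 CPM (0.31 ± 0.05, FDR 0.00191), with females of both groups level. Without surrogate variables, Col3a1 (FDR 0.119) and Col1a2 (FDR 0.352) were not called, while Col1a1 was (FDR 0.00558). Col5a1 (0.27, FDR 0.00306) and Col5a2 (0.41, FDR 0.0474) were no longer called with the length offsets.

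Ccdc80, a secreted matrix protein, stood at 22.3, 21.2, 20.6 and 20.5 CPM and at 32.8, 31.1, 35.8 and 32.7 CPM (0.60 ± 0.07, FDR 5.48e-05), and Hapln1, which links hyaluronan to proteoglycans, rose by 0.22 ± 0.04 (FDR 0.00565). Lum, the small proteoglycan lumican, stood at 25.3, 22, 23.3 and 24.5 CPM and at 30.1, 29.2, 37.5 and 28.9 CPM (0.40 ± 0.08, FDR 0.0133), and Lamc1, a laminin chain, rose by 0.28 ± 0.05 (FDR 0.0107). These 4 were chosen after their values were seen, and none of them overlapped between the groups. Postn, the matrix protein periostin, stood at 41.5, 31.6, 16.4 and 28.9 CPM and at 78.5, 51.8, 122 and 54.0 CPM (1.38 ± 0.31, FDR 0.0415), but was not called without Kat6a+/+Tg(Kat6b) replicate 1 (FDR 0.0703). Dcn, the proteoglycan decorin, had 4.05, 2.98, 3.30 and 3.19 CPM and 6.20, 3.16, 7.34 and 4.04 CPM (0.79 ± 0.17, FDR 0.0131), with overlap and a larger difference in males (0.87) than in females (0.21). The serine protease gene Prss35 had 2.93, 2.47, 1.81 and 3.14 CPM and 4.96, 4.09, 8.08 and 4.00 CPM (1.1 ± 0.22, FDR 0.0118).

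A pair of endothelial genes rose. Of 14 tested endothelial markers 2 rose and none fell (median 0.09), beside 2.28% of all tested genes called higher. Cdh5, the cadherin of endothelial junctions, stood at 87.9, 101, 92.5 and 90.1 CPM and at 110, 105, 102 and 109 CPM (0.23 ± 0.04, FDR 0.009), and Tie1, an endothelial receptor, at 48.5, 48.4, 43.5 and 44.2 CPM and at 57.0, 49.5, 53.5 and 51.3 CPM (0.22 ± 0.06, FDR 0.0367). Neither gene overlapped between the groups. Stab2, a scavenger receptor of sinusoidal endothelium, stood at 1.24, 1.19, 1.11 and 1.44 CPM and at 3.09, 1.64, 2.47 and 1.71 CPM (1.13 ± 0.22, FDR 0.0105). Summed endothelial markers were 537 to 603 CPM in Kat6a+/+Tg(Kat6b) and 590 to 642 CPM in Kat6a-/-Tg(Kat6b) embryos.

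Single genes with other roles also rose. Npc1, the lysosomal cholesterol transporter, stood at 26.4, 31.6, 29.7 and 28.2 CPM and at 50.1, 47.2, 48.1 and 48.8 CPM (0.68 ± 0.09, FDR 0.00188), and Mpp7, a membrane scaffold protein, at 10.9, 10.9, 11.8 and 13.4 CPM and at 19.1, 18.8, 19.9 and 19.1 CPM (0.67 ± 0.12, FDR 0.00452). Both were chosen after their values were seen, and for both the groups were far apart. None of the 20 tested cholesterol synthesis genes passed the FDR (median 0.02). Nrk, an X-linked kinase gene, stood at 7.44, 10.4, 9.11 and 10.0 CPM and at 15.9, 12.8, 19.7 and 12.4 CPM (0.90 ± 0.12, FDR 0.000232), with 1.09 in males and 0.30 in females. Grhl3, a grainyhead factor of surface ectoderm and neural tube closure, was the 1 gene called among 15 Cdx and tail bud genes (0.61 ± 0.15, FDR 0.0299). Cdx2 of the same list overlapped widely, at 11.9, 13.2, 8.78 and 9.47 CPM and at 8.75, 18.2, 8.63 and 18 CPM, and its fitted value of -0.27 (FDR 0.163) was 0.32 without surrogate variables.

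**Figure D4:**
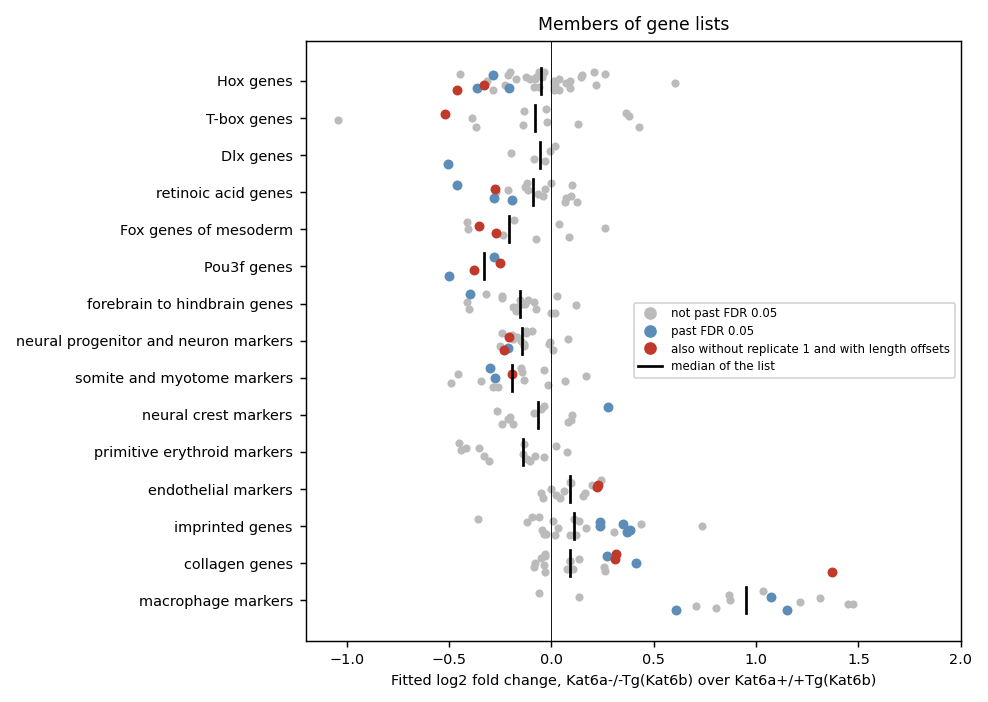
Log2 fold change, Kat6a-/-Tg(Kat6b) over Kat6a+/+Tg(Kat6b), of the tested members of 15 gene lists. Grey points did not pass the FDR, blue points passed it but were not robust, and red points are robust genes, in either direction. Black bars are list medians. The Pou3f median is -0.33 and the macrophage median 0.95.

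Imprinted genes gave 5 higher and no lower calls among 23 tested (median 0.11): H19, Igf2r, Peg3, Peg10 and Plagl1. Among all tested genes 2.28% were called higher. Igf2r, the receptor that clears IGF2, stood at 282, 343, 297 and 293 CPM and at 395, 379, 398 and 380 CPM (0.38 ± 0.07, FDR 0.0177). H19 had 0.24 ± 0.06 (FDR 0.0345) and Peg3 0.35 ± 0.08 (FDR 0.0327). Without Kat6a+/+Tg(Kat6b) replicate 1 none of the 5 was called, with FDRs of 0.0606 for H19, 0.107 for Igf2r, 0.133 for Peg3, 0.22 for Peg10 and 0.221 for Plagl1.

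Few blood and immune genes passed the test. Of 19 blood stem and progenitor genes, the myeloid factor Spi1 alone passed (1.48 ± 0.40, FDR 0.0413), and it missed the FDR without Kat6a+/+Tg(Kat6b) replicate 1 (0.201). Kit, the receptor of stem cell factor, had means of 37.2 ± 2.49 and 39.8 ± 3.40 CPM (0.08, FDR 0.503). Of 14 tested macrophage markers 3 rose (Mrc1, Csf1r and Laptm5), 13 were positive, and the median was 0.95, beside 2.28% of all tested genes called higher. Mrc1, the mannose receptor, stood at 1.36, 1.83, 1.57 and 1.22 CPM and at 3.60, 2.13, 2.77 and 2.15 CPM (1.15 ± 0.26, FDR 0.0201). The list summed to 15.1 to 17.0 CPM in Kat6a+/+Tg(Kat6b) and to 16.9 to 27.6 CPM in Kat6a-/-Tg(Kat6b) embryos, and none of the 3 calls held without Kat6a+/+Tg(Kat6b) replicate 1 (FDR 0.0702, 0.153 and 0.0842). In embryos without the transgene, 9 of the 14 markers were higher after KAT6A loss, with a list median of 1.27. For no macrophage marker did the difference between the effects pass the FDR. Adgre1, Aif1 and C1qc of this list had no counts in at least 1 of the 8 embryos. No primitive erythroid marker of 14 passed, although the list summed to 5068 to 6350 CPM and to 3969 to 4778 CPM, ranges that did not overlap, and the part of blood content in the other results was not tested.

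Tissue that could be carried along at dissection was checked by its markers. None of the 15 tested yolk sac endoderm and liver bud markers passed the FDR (median 0.32), and they summed to 68.6, 65.5, 13 and 37.1 CPM in Kat6a+/+Tg(Kat6b) and to 62.5, 57.1, 75.9 and 59.4 CPM in Kat6a-/-Tg(Kat6b) embryos. Prl8a2, Prl3c1, Tpbpa, Ctsq, Psg18 and Psg19, from the list of trophoblast and decidua markers, had no counts in any of the 8 embryos. Of 4 tested markers of that list Dcn alone rose. None of 18 heart muscle markers passed (median 0.06), with sums of 900.1 to 1509 CPM and 1336 to 1494 CPM. Neural crest markers gave 1 higher call of 12, Ngfr (0.27, FDR 0.0355), which had an FDR of 0.276 without Kat6a+/+Tg(Kat6b) replicate 1. Blood, heart, neural and somite markers were thus counted in all 8 embryos.

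Lists tied to cell growth and chromatin gave few or no calls. No gene passed the FDR among 13 cell cycle inhibitors (median -0.04), 9 KAT6 complex and MYST genes (0.01) and 20 glycolysis and hypoxia genes (-0.08). Ring1, a Polycomb ubiquitin ligase, was the 1 call of 24 Polycomb and trithorax genes (-0.30 ± 0.06, FDR 0.0148) and had an FDR of 0.0987 without Kat6a+/+Tg(Kat6b) replicate 1. Of 9 tested germline and meiosis genes Cyct, the testis cytochrome c, rose (3.89 ± 0.81, FDR 0.0131) from 0.0413, 0.0426, 0.0412 and 0.0873 CPM to 0.382, 0.533, 0.555 and 0.373 CPM, where the first group had 1 or 2 counts per library, with an FDR of 0.0652 without that library. The 13 protein-coding mitochondrial genes were all negative, and ND1, ND2, COX2 and COX3 fell. They took 1.30% to 1.57% of counts in Kat6a+/+Tg(Kat6b) and 0.903% to 1.25% in Kat6a-/-Tg(Kat6b) libraries, and with the length offsets none of the 4 was called.

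Several of the genes with the largest changes also differed between litters of Kat6a+/+Kat6b+/+ embryos. Wipi1, an autophagy protein gene (chr11:109464156-109502793, GRCm39), stood at 17.3, 16.8, 17.6 and 18.4 CPM in Kat6a+/+Tg(Kat6b) and at 0, 0.133, 0.185 and 0.110 CPM in Kat6a-/-Tg(Kat6b) embryos, which is 0 to 5 counts per library, so that the fitted value depends on the prior count ( log2 fold change -7.15 ± 0.36, FDR 1.03e-07). In Kat6a+/+Kat6b+/+ embryos Wipi1 stood at 8.62 and 8.28 CPM in litters 801 and 803 and at 18.8 and 18.9 CPM in litters 2597 and 2598, and all 4 Kat6a-/-Kat6b+/+ embryos had 6.70 to 8.48 CPM. Nr1h5, a nuclear receptor gene, stood at 2.35, 2.30, 0.371 and 1.27 CPM and at 36.1, 40.4, 46.9 and 35.7 CPM (4.01 ± 0.65, FDR 0.0133), while Kat6a+/+Kat6b+/+ embryos had 38.5 and 44.1 CPM in litters 801 and 803 and 1.83 and 1.92 CPM in litters 2597 and 2598. For both genes, embryos with intact Kat6a and no transgene thus already differed by litter.

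Krt15, a keratin gene, stood at 0.578, 0.938, 0.412 and 0.742 CPM in Kat6a+/+Tg(Kat6b) and at 4.20, 3.87, 6.29 and 3.95 CPM in Kat6a-/-Tg(Kat6b) embryos (2.42 ± 0.39, FDR 0.00565). Kat6a+/+Kat6b+/+ embryos had 2.83 and 2.82 CPM in litters 801 and 803 and 0.402 and 0.755 CPM in litters 2597 and 2598. Such a difference between these litters, in the same direction and at least 0.5 times as large on the log2 scale, was seen for 11 of the 24 named genes with the largest rises and falls, for 69 of the 535 called genes and for 14 of the 102 robust genes. The 11 were Nr1h5, Krt15, Svopl, A230056P14Rik, Trib3, Gm10433, Oc90, Masp2, Pot1a, Dlx6os1 and Mthfsl, while for Wipi1 the difference between litters was under 0.5 of the change. The 14 included Pou3f3, Pou3f2, Krt15, Krt10, Abca5 and Dlx6os1, whereas Tbx1, Hoxb3, Aldh1a2, Rbpj and Col1a1 were not among them. No Kat6a+/+Kat6b+/+ embryo shared a litter with a Kat6a-/-Tg(Kat6b) embryo. The check therefore cannot show whether a gene differs by litter between the transgenic groups. In the Kat6a+/+Kat6b+/+ embryos litter also coincided with sex, so the 2 cannot be told apart there.

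Hprt, a purine salvage enzyme, had 18.3, 17.1, 14.8 and 18.3 CPM and 58.3, 37.5, 63.1 and 35.8 CPM (1.54 ± 0.36, FDR 0.049), and among Kat6a-/-Kat6b+/+ embryos it stood at 32.9, 51.1, 18.7 and 19.3 CPM. Trib3, a stress-induced pseudokinase, rose by 1.15 ± 0.27 (FDR 0.0236), and Oc90, an otolith protein of the otic vesicle, fell by 1.17 ± 0.29 (FDR 0.0291). Lower genes with related copies in the genome were Tmem181c-ps (-2.22), Lipo2 (-1.91), Dynlt1b (-1.49), Akr1b3 (-1.34), Pot1a (-0.86), Dynlt1a (-0.85) and Mthfsl (-0.77). How alike the copies are, and whether the counting split reads between them, was not tested. Svopl, A230056P14Rik and Gm10433 rose by 1.09 to 1.51, Masp2 and Apod fell by 0.83 to 0.96, and none of these 5 was robust. Of the 24 largest changes, 7 were robust by the 3 fits.

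Genes close to the targeted locus were looked at because they stay linked to the mutant allele. Within 20 Mb of Kat6a on chromosome 8, 172 genes were tested, 3 were higher (Atp11a, Nsd3 and Saraf) and 2 lower (Nek3 and Sox1), beside the 3.41% called over all tested genes. Nek3 and Sox1 were robust by the 3 fits, whereas Atp11a and Saraf missed the FDR without Kat6a+/+Tg(Kat6b) replicate 1 (0.0893 and 0.197) and Nsd3 turned from 0.19 to -0.084 with the length offsets (FDR 0.516). Nek3, a mitotic kinase gene, stood at 12, 12.4, 11.0 and 10.1 CPM and at 5.66, 6.76, 7.46 and 8.52 CPM (-0.76 ± 0.12, FDR 0.00197). In embryos without the transgene it was also lower after KAT6A loss (-1.26, FDR 5.79e-07). Dusp29, the other gene of the transgene clone, had 0.14 ± 0.39 (FDR 0.884).

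The same loss of KAT6A without the transgene changed 295 genes (1.88%), 148 higher (0.944%) and 147 lower (0.938%). The 2 comparisons share no embryo, but they share the estimate of spread and the surrogate variables, and Kat6a+/+Kat6b+/+ replicates 3 and 4 were littermates of the Kat6a+/+Tg(Kat6b) embryos. Of the 44 robust lower genes, 14 (31.8%) were also lower without the transgene, which is 9.52% of those 147. Tbx1 (-0.65, FDR 4.29e-05), Hoxb3 (-0.39, FDR 3.27e-06), Hoxb1 (-0.66, FDR 1.79e-05), Pou3f3 (-0.47, FDR 1.62e-06), Aldh1a2 (-0.27, FDR 0.0014), Foxc2 (-0.28, FDR 0.0085), Skida1 (-0.60, FDR 4.2e-07) and Ntn1 (-0.25, FDR 0.00131) were among them. Of the 58 robust higher genes, 4 (6.90%) were also higher without the transgene, which is 2.70% of those 148, Ccdc80 (0.35, FDR 0.00462) being one.

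Seen over all members, 38 of the 44 lower genes (86.4%) had a negative value without the transgene, and 42 of the 58 higher genes (72.4%) a positive one. The same was so for 52.8% of all tested genes with a negative value with the transgene and for 55.7% of those with a positive one. The median log2 fold change of the lower genes was -0.35 with and -0.18 without the transgene, and that of the higher genes 0.38 and 0.07. Each set was chosen by a test in 1 of the comparisons, so its median in that comparison is set by the choice. The 148 and 147 genes called without the transgene had medians of 0.40 and -0.34 there and of 0.13 and -0.14 with it. The value was less positive with the transgene for 134 of the 148 and less negative for 140 of the 147. These counts include 27 and 28 genes of opposite sign. Since the genes were chosen by their effect without the transgene, such a shift follows at least in part from the choice, and it was not tested.

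The difference between the 2 effects was tested directly, and 24 genes (0.153%) passed the FDR, 16 with a higher and 8 with a lower value with the transgene. Igf2, the fetal growth factor, stood at 1860, 2010, 1750 and 1830 CPM in Kat6a+/+Tg(Kat6b) and at 1960, 1970, 2010 and 1970 CPM in Kat6a-/-Tg(Kat6b) embryos (0.09, FDR 0.157). Without the transgene its log2 fold change was -0.24 (FDR 0.000158), and the difference between the effects was 0.33 (FDR 0.00209). Steap2, a metalloreductase, had 0.40 with and -0.36 without the transgene, a difference of 0.76 (FDR 0.00209). For Nrk the difference was 0.96 (FDR 0.00757), for Dcn 1.25 (FDR 0.0181), for Col1a2 0.34 (FDR 0.0207) and for Dlx6os1 1.11 (FDR 0.0395), the last being -0.84 with and -1.96 without the transgene. Without Kat6a+/+Tg(Kat6b) replicate 1 the differences for Col1a2 (FDR 0.132) and Dlx6os1 (FDR 0.0569) were not called. Lower values with the transgene were found for Wipi1 (-6.46, FDR 6.35e-06), COX3 (-0.40, FDR 0.0022), Gtf2a1, a general transcription factor gene (-0.50, FDR 0.00757), and Kbtbd11 (-0.49, FDR 0.00757).

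Of the 24 genes, 20 were also called without Kat6a+/+Tg(Kat6b) replicate 1, 18 with the length offsets and 16 in both, and COX3 had an FDR of 0.429 with the offsets. A total of 12 of the 102 robust genes were among the 24, with Rbpj, Nrk, Dcn, Wipi1 and Dlx6os1 in that overlap. For Tbx1 (difference 0.13, FDR 0.596), Hoxb3 (0.06, FDR 0.624), Pou3f3 (0.09, FDR 0.515), Aldh1a2 (-0.01, FDR 0.967) and Col1a1 (1.26, FDR 0.115) the effects with and without the transgene were not shown to differ.

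**Figure D5:**
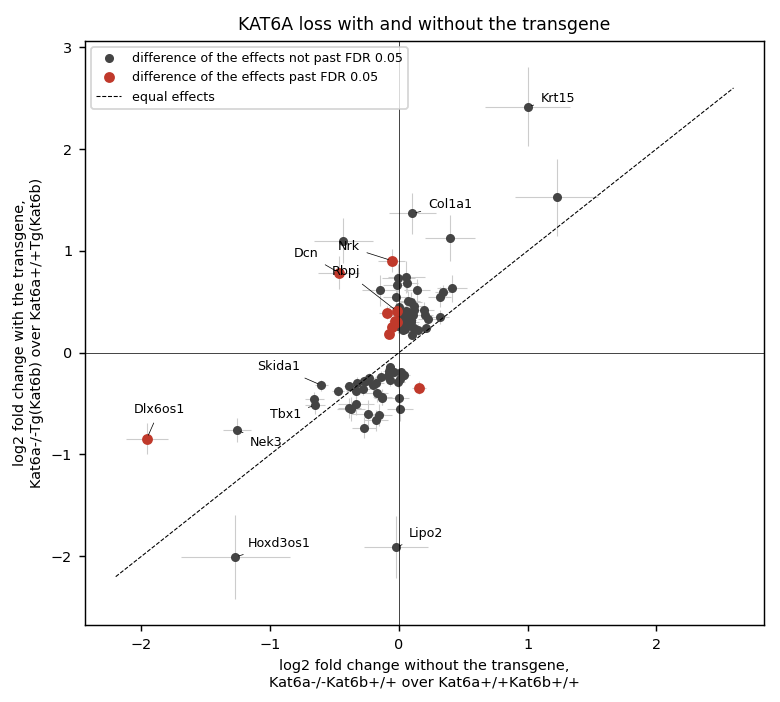
Log2 fold change after KAT6A loss with the transgene (vertical) against that without it (horizontal) for 100 of the 102 robust genes, Wipi1 and Ms4a6c lying outside the axes. Bars are standard errors, the dashed line marks equal effects, and red marks genes whose difference passed the FDR; the lower genes had a median of -0.35 with and -0.18 without the transgene.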

How the data were processed

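Whole E9.5 mouse embryos were profiled by bulk RNA-seq, with 4 embryos of each of 4 genotypes. Libraries were made with the TruSeq RNA v2 kit, which does not mark strand. The authors deposited raw counts per gene for each embryo, with gene lengths and Entrez identifiers. The submitters' processing notes name bcl2fastq, featureCounts and the mm39 genome build. The study's methods name the Rsubread aligner, and the strand setting and annotation release are not given in the sources used here. The counts were used as deposited. Gene positions came from the GENCODE annotation of GRCm39, which matched 25282 of 26411 genes. Promoter windows were placed by the Ensembl canonical transcripts of the same annotation.

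Genes were filtered with filterByExpr (minimum count 10, minimum total 15), scaled by TMM and fitted in edgeR 4.0.16 (R 4.3.3) by robust quasi-likelihood with genotype and 2 surrogate variables from sva 3.50.0. P-values were adjusted by Benjamini-Hochberg over all 15679 tested genes, with an FDR threshold of 0.05. Single levels were compared with exact permutation tests in scipy 1.17.1. Depth sets the precision: genes with few counts per library were worded by their counts. The labels say that embryos are separate samples, and 3 of the 4 in each transgenic group are littermates, so p-values measure the spread between these embryos only.

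Named genes were Kat6a and Kat6b, the 12 largest rises and the 12 largest falls among called genes without overlap and with a mean log2 CPM of 0 or more, at most 6 called members of each gene list, the leading Hox, Dlx and T-box genes with Kit and Cdx2, 8 genes of the test of the difference between effects, and genes near Kat6a or in the clone. Another 12 were added after their values were seen. The comparison and the lists were chosen with earlier results of these data known. Alternatives were no or 1 surrogate variable, sex as covariate, DESeq2 1.42.0, its size factors, limma 3.58.1 voom with and without litter as a random effect, other count filters, a replicate block, subsets of embryos, each embryo left out, and an FDR of 0.01. Gene length offsets were added later. The tests were tried on simulated data first.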

Additional observations from a re-analysis of the deposited data

Results flagged for a closer look

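In groups of 4 embryos, the gap between the highest or lowest embryo and its neighbour was compared with the whole range, for 206 groups of values of the 102 named genes and the 2 transgenic genotypes. The gap passed Dixon's critical value in 14 groups, where chance alone gives about 1 in 20. Kat6a stood at 138 CPM in Kat6a+/+Tg(Kat6b) replicate 1, below the other 3 embryos. Kat6a-/-Tg(Kat6b) replicate 3 stood above its group for Krt15 (6.29 CPM), Tmem181c-ps (16.5 CPM), Dynlt1b (14.1 CPM), Dynlt1a (12.5 CPM), COX3 (772 CPM) and Lum (37.5 CPM). In the same genotype, replicate 1 was high for Oc90 (1.3 CPM) and low for Otx1 (17.3 CPM), and replicate 2 was low for Hoxd4 (53.7 CPM). Kat6a+/+Tg(Kat6b) replicate 3 was high for Pou3f1 (13.2 CPM), Ntn1 (177 CPM) and Krt10 (11.9 CPM), and replicate 4 was high for Cyct (0.0873 CPM).

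The effect of KAT6A loss differed with and without the transgene for 11 named genes, by the contrast that tests the difference between the 2 effects. The log2 difference was -6.46 for Wipi1 (FDR 6.35e-06), 0.76 for Steap2, 0.33 for Igf2 and 0.43 for Rbpj (FDR 0.00209 each), and -0.40 for COX3 (FDR 0.0022). It was 0.96 for Nrk, -0.50 for Gtf2a1 and -0.49 for Kbtbd11 (FDR 0.00757 each), 1.25 for Dcn (FDR 0.0181), 0.34 for Col1a2 (FDR 0.0207) and 1.11 for Dlx6os1 (FDR 0.0395).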

How the results depend on the processing

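The 535 genes that differed between the transgenic genotypes became 882 with DESeq2, 839 with voom and litter as a random effect, 346 with the 8 transgenic embryos alone, 141 with litters 483 and 2597 alone, 262 with gene length offsets, 184 with offsets and without Kat6a+/+Tg(Kat6b) replicate 1, and 76 at an FDR of 0.01. Leaving out 1 embryo gave 165 (Kat6a+/+Tg(Kat6b) replicate 1) to 703 genes, and 241, 210, 197 and 199 without Kat6a-/-Tg(Kat6b) replicates 1 to 4. The split of higher to lower was 357 to 178 at first, 135 to 127 with offsets and 181 to 165 with the 8 embryos alone. Under a replicate block the count was 286; embryos with the same number were not paired by litter, and their deviations correlated by 0.026 to 0.325, so the block was not used. The 24 genes whose effect differed with the transgene became 138 with DESeq2, 42 without a count filter, 11 with litters 483 and 2597, 46 with offsets and without Kat6a+/+Tg(Kat6b) replicate 1, 10 at an FDR of 0.01, and 18 to 81 with 1 embryo left out (81 and 45 without Kat6a+/+Tg(Kat6b) replicates 2 and 3). The Kat6b ratio of 1.03 ranged from 0.965 (without Kat6a+/+Tg(Kat6b) replicate 1) to 1.09. Signs turned for genes that were not called, and for Nsd3. Kat6a was -0.0026 with offsets and without that embryo, and Kat6b -0.0055 with offsets, -0.054 with both and -0.0004 to 0.17 with 1 embryo left out. Nsd3 was -0.084 with offsets and -0.014 with both, and Dusp29 ranged from -0.15 (without Kat6a-/-Tg(Kat6b) replicate 3) to 0.55. Cdx2 was 0.32 without surrogate variables, 0.285 with 1, 0.28 with sex and 0.25 with the 8 embryos. Dlx6 was 0.034, 0.012, 0.0056 and 0.0083 in those 4 fits, 0.027 with the block, 0.067 with offsets, 0.10 with offsets and without Kat6a+/+Tg(Kat6b) replicate 1, and -0.13 to 0.071 with 1 embryo left out. Why these values moved was not tested. Depth limits what can be said of genes with a few counts per library, such as Wipi1 in Kat6a-/-Tg(Kat6b) and Cyct in Kat6a+/+Tg(Kat6b) embryos.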
